A study of Mus musculus with 91 samples.

Results

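The mature miRNAs of 2 families that target DNA methyltransferase transcripts were followed through mouse gastrulation. The miR-29 family comprised mmu-miR-29a-3p, mmu-miR-29b-3p and mmu-miR-29c-3p, and the miR-148/miR-152 family comprised mmu-miR-148a-3p, mmu-miR-148b-3p and mmu-miR-152-3p. They were taken by name, and all 6 were found among the 1504 mature miRNAs of the count table. Briefly, miR-148a-3p was the only abundant member, and no member was called in Dnmt1-KO or Dnmt3a/3b-DKO tissue. In the E7.5 epiblast of embryos edited in all of Dnmt1, Dnmt3a and Dnmt3b, miR-148a-3p and miR-148b-3p fell, and both calls depended on the scaling.

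Small RNA was sequenced by CAS-seq from 100 pg of RNA per library. Extraembryonic ectoderm (Exe) and epiblast (Epi) were dissected from embryos at embryonic day 6.5 (E6.5) and 7.5 (E7.5). Per the paper, the zygotes came from Oct4-EGFP transgenic males of C57BL/6J background and B6D2F1 (C57BL/6J by DBA2) females. A cytosine base editor injected into zygotes had introduced stop codons into Dnmt1 (Dnmt1-KO), into Dnmt3a and Dnmt3b (Dnmt3a/3b-DKO) or into all of them (Dnmt-null). The labels name the remaining group control and do not say how its zygotes were treated. Each of these 16 groups held 4 libraries, except that the E7.5 Epi control and Dnmt-null groups held 3. Semi-cloned (SC) embryos, made by injecting androgenetic haploid embryonic stem cells (AG-haESCs) into oocytes, formed 6 further groups of 3 libraries. The paper names epiblast as the tissue of the WT, DKO and Dnmt-null groups of E6.5. The E6.5 groups were WT, DKO, Dnmt-null and DKO;Dnmt-null. At E7.5 they were a control derived from DKO-AG-haESCs and Mir-6KO;Dnmt-null, which came from DKO-AG-haESCs with deletions of 6 miRNAs and was then edited in all of the Dnmt genes. In these SC names DKO means deletion of the H19-DMR and the IG-DMR, the control regions of the H19 and Dlk1-Dio3 imprinted domains, and not loss of Dnmt3a and Dnmt3b. AG-haESCs of C57BL/6 background were sequenced as WT (3 libraries), as the line named O48 (3 libraries) and as Mir-6KO (2 libraries). The labels do not give the genotype of O48. The methods name it as the parent for the miRNA deletions, which the paper places in DKO-AG-haESCs, so O48 is read here as a DKO line. The deleted lines were each grown from a single cell, per the methods. The edit stops the protein and need not remove the transcript. Small RNA libraries do not read the Dnmt transcripts, so the edited genes themselves could not be checked in them.

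DNMT1 copies methylation onto the new strand at replication, and DNMT3A and DNMT3B set methylation at sites that had none. A miRNA pairs through its seed, bases 2 to 8 from the 5′ end, with sites in the 3′ UTR of a transcript and lowers its translation or stability. Members of the miR-29 family are known to repress Dnmt3a and Dnmt3b, and members of the miR-148/miR-152 family are known to repress Dnmt1. The comparison asks whether the level of these miRNAs changes when the enzymes they target are lost.

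The sequences are shown because the members of a family share their seed and differ only in the bases after it, which decides how well the counts can tell them apart. Each is the mature miRNA of RefSeq, written 5′ to 3′ with the seed in capitals. The miR-29 family shares the seed AGCACCA.
mmu-miR-29a-3p: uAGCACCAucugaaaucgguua
mmu-miR-29b-3p: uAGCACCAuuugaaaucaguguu
mmu-miR-29c-3p: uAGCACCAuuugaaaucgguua
The miR-148/miR-152 family shares the seed CAGUGCA.
mmu-miR-148a-3p: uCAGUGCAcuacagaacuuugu
mmu-miR-148b-3p: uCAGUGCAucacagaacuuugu
mmu-miR-152-3p: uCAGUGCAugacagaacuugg
Each seed was held by 3 mature miRNAs of the RefSeq set, all of them members. With positions counted from 1 at the 5′ end and the first-named miRNA's base first, miR-29a-3p and miR-29c-3p differed by the single substitution C10U. miR-29b-3p and miR-29c-3p shared their first 17 bases and differed by A18G, G21U and U22A. miR-148a-3p differed from miR-148b-3p by C9U and U10C, and from miR-152-3p by C9U, U10G and U20G.

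The families lie at separate loci (GRCm38.p6). Mir29a (chr6:31062660-31062747, minus strand) and Mir29b-1 (chr6:31063023-31063093, minus strand) were 275 bases apart and lay in no annotated gene. Mir29b-2 (chr1:195037040-195037120) and Mir29c (chr1:195037547-195037634) were 426 bases apart on the plus strand, within the noncoding gene A330023F24Rik and antisense to an exon of Cd46. miR-29b-3p has the same sequence from both of its loci, so its counts cannot be assigned to either. Mir148a (chr6:51269812-51269910, minus strand) lay in no annotated gene. Mir148b (chr15:103285125-103285221, plus strand) lay in an intron of Copz1, and Mir152 (chr11:96850393-96850465, plus strand) lay in an intron of Copz2, both on the strand of the host gene. Copz1 and Copz2 encode related subunits of the COPI vesicle coat.

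The 3′ UTRs of the targets were searched on the transcript strand only, for TGGTGCT, the reverse complement of the miR-29 seed, and for TGCACTG, that of the miR-148/miR-152 seed, in the longest annotated 3′ UTR of each gene. The motifs do not overlap each other. The 3′ UTR of Dnmt3a (6696 bases) held TGGTGCT 5 times, and 46.3% of 512 mouse 3′ UTRs of like length held it at least once. That of Dnmt3b (1331 bases) held it once, against 12.3% of 3110 UTRs of like length. That of Dnmt1 (312 bases) held TGCACTG once, against 3.28% of 1890. No match to TGGTGCT was found in the Dnmt1 window, and none to TGCACTG in those of Dnmt3a and Dnmt3b. The Dnmt1 match, the Dnmt3b match and the only Dnmt3a matches followed by an A, which faces the first base of the miRNA, are shown with the motif in capitals.
Dnmt1 (chr9:20907492-20907498, minus strand): acccagagccccacgTGCACTGa
Dnmt3b (chr2:153686627-153686633, plus strand): tagagtagcccggcaTGGTGCTc
Dnmt3a (chr12:3911405-3911411, plus strand): cccaggggaggtagcTGGTGCTa
Dnmt3a (chr12:3911474-3911480, plus strand): agcggggtcccaagcTGGTGCTa
A match describes these letters and is not evidence of a working site.

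Values are counts scaled to the same total of miRNA counts in every library (CPM), and a level of 3 counts was taken as the floor of detection. Totals ranged from 45242 to 2394918 counts over the 62 Exe and Epi libraries, so the floor lay between 1.25 and 66.3 CPM, and from 154061 to 26970637 over the SC libraries. Floors cover counting error only. The labels do not say that libraries of a group came from separate embryos, so p-values measure the spread between libraries. In bulk tissue, fewer cells of a type and less RNA per cell cannot be told apart. The labelled tissues matched their markers: the summed epiblast markers (the miR-302/367 cluster) were at 48473 to 212606 CPM in Epi and 5617 to 45944 in Exe, and the trophoblast markers of the Sfmbt2 cluster at 537 to 21956 and 27414 to 65304. Some libraries stood apart. An E6.5 SC Dnmt-null library held trophoblast markers at 40489 CPM against 14043 and 14988 CPM in the others of its group. E6.5 SC WT replicate 3 held epiblast markers at 21252 CPM against 195381 and 214514 in replicates 2 and 1. E6.5 Exe Dnmt1-KO replicate 4 held blood markers at 9888 CPM against 196 to 839 in the other libraries of its group. The AG-haESC Mir-6KO libraries held epiblast markers at 239331 and 268002 CPM against 924 to 3914 in WT and O48 cells and entered no test.

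miR-148a-3p was the dominant member in every tissue. It lay above the floor in 62 of 62 Exe and Epi libraries, at 2564 to 5143 CPM in Epi (median 4317) and 2587 to 9103 CPM in Exe (median 5735). It made up 87.2% to 100% of the counts of its family (median 95.1%), and the family made up 0.275% to 0.954% of all miRNA counts. miR-148b-3p came next, above the floor in 59 of 62 libraries and reaching 416 CPM, with a median of 245 CPM in Epi and 220 CPM in Exe. miR-152-3p was above the floor in 41 of 62 libraries and reached 173 CPM.

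The miR-29 family was scarce. miR-29a-3p was above the floor in 27 of 30 Epi libraries (median 57.7 CPM) but in 17 of 32 Exe libraries (median 9.05 CPM). miR-29b-3p was above the floor in 16 and miR-29c-3p in 8 of the 62 libraries, and both had a median of 0 in each tissue. Ordered by mean level, the 16 groups ran from 6989 ± 1578 CPM (SD, n = 4) in E6.5 Exe Dnmt3a/3b-DKO to 3188 ± 155 CPM (SD, n = 3) in E7.5 Epi Dnmt-null for miR-148a-3p. The ranges of neighbouring groups in this order overlapped in all 15 pairs, for each of the 6 members.

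**Figure D1:**
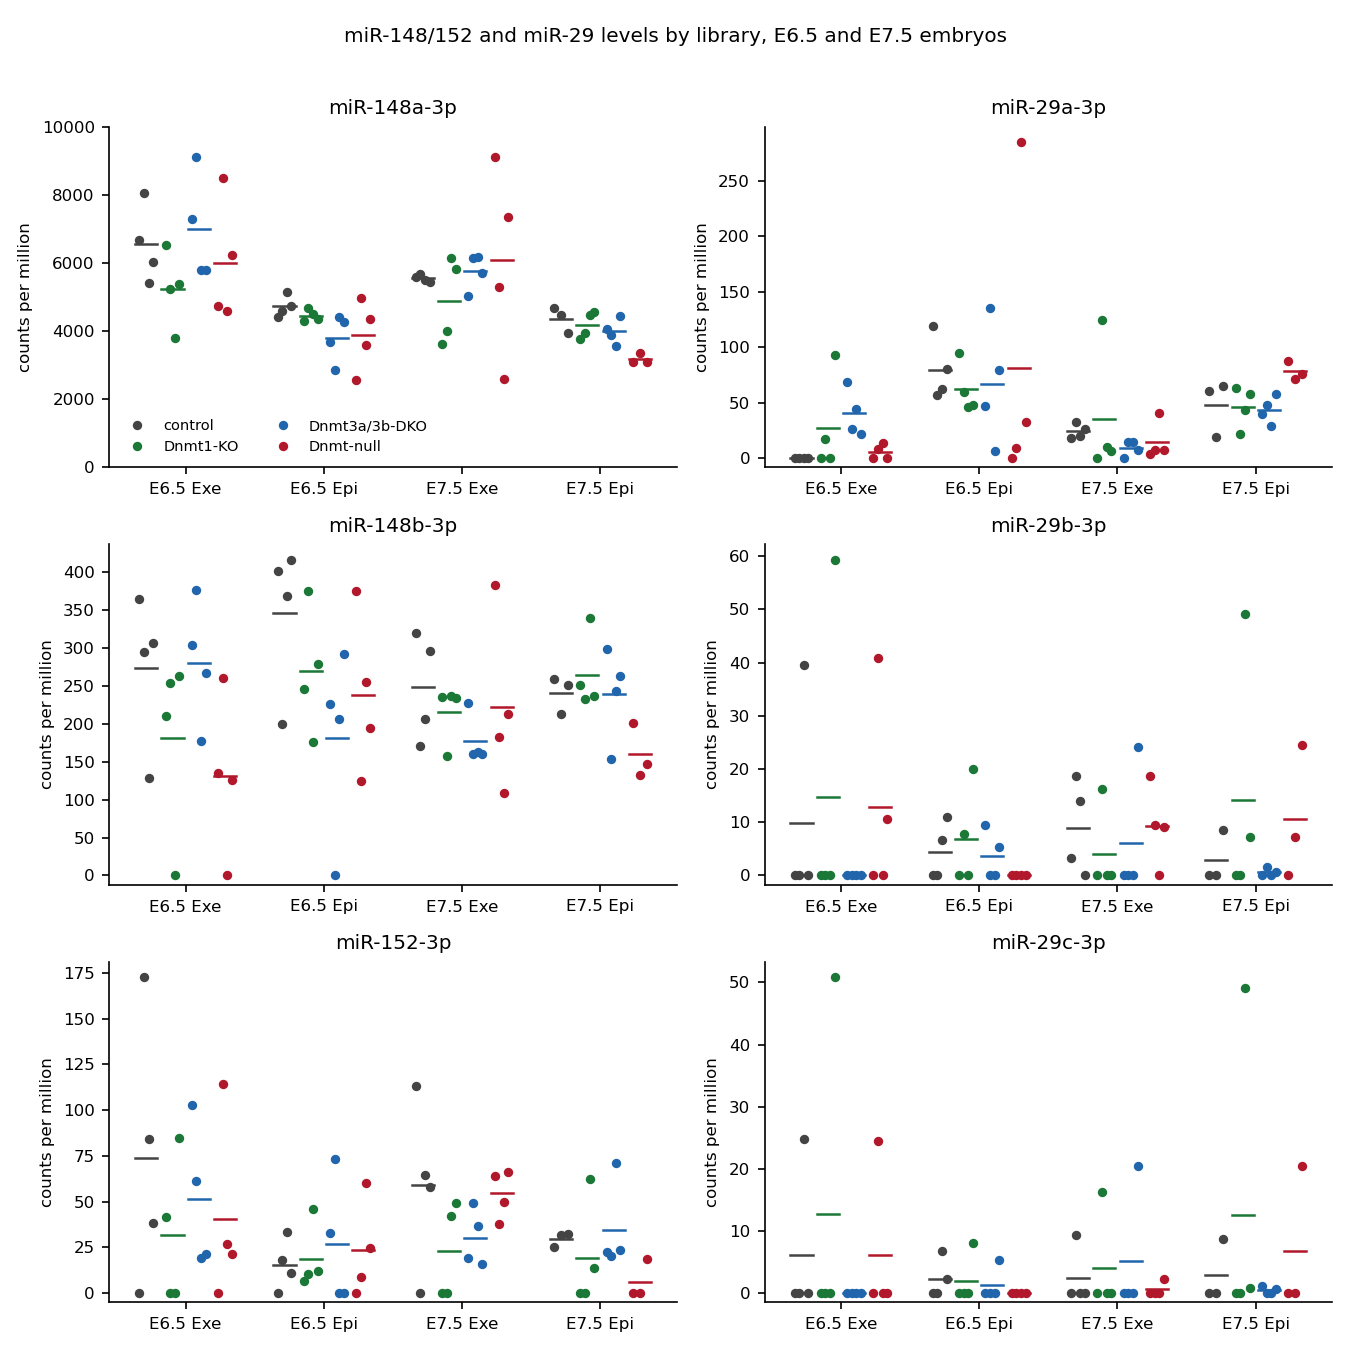
CPM of each member (vertical axis, linear) in each of the 62 Exe and Epi libraries, by tissue and stage (horizontal axis) and genotype (colour), with the group mean as a bar. miR-148a-3p lies between 2564 and 9103 CPM, miR-29a-3p is at 0 in all E6.5 Exe controls, and miR-29b-3p and miR-29c-3p are at or near 0 in most libraries.

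In control embryos, miR-29a-3p distinguished the tissues at E6.5. Its counts were 0 in all 4 E6.5 Exe controls, whose floors lay between 14.8 and 45.6 CPM, whereas its level in the E6.5 Epi controls was 119, 56.9, 62.6 and 80.6 CPM. The groups did not overlap, and the Epi mean of 79.7 CPM was at least 3.15-fold higher than the mean floor of the Exe libraries. This was the only member called among 8 tests of Exe against Epi (edgeR's quasi-likelihood test, Benjamini-Hochberg adjusted p = 3.60e-04), where 40.1% of all such tests were called and 30.8% after adjustment (39.6% at E6.5 and 40.5% at E7.5 without it). A call required p below 0.05 without adjustment and a log2 fold change beyond 0.5 in either direction. It was called in all 15 alternative settings, with adjusted p from 5.07e-06 to 0.00238.

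At E7.5 the Exe controls held miR-29a-3p at 18.3, 32.7, 19.8 and 26.0 CPM and the Epi controls at 60.2, 18.6 and 65.3 CPM, and the groups overlapped. The difference at E7.5 was not called (log2 fold change −1.09, 95% interval −2.48 to 0.31, edgeR adjusted p = 0.288). Between the stages within Exe, no order of miR-29a-3p was established. All E7.5 Exe controls lay below the floor of E6.5 replicate 1 (45.6 CPM), and their mean of 24.2 CPM was below the mean E6.5 floor of 25.3 CPM. The test of stage called it nonetheless (edgeR adjusted p = 0.00701), which rests on the counts of 0 at E6.5 and is not read as a difference. It was the only call among 8 such tests of members, against 30.3% of all tests called and 20.5% after adjustment, or 25.3% in Exe and 35.3% in Epi without it.

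miR-148a-3p was higher in Exe than Epi controls by level but not by the call. In E6.5 Exe it was at 6661, 8064, 5418 and 6035 CPM and in E6.5 Epi at 4426, 4595, 5143 and 4738 CPM, with no overlap. The fitted log2 fold change of 0.39 ± 0.16 (SE) stayed below the threshold for a call (edgeR adjusted p = 0.0660). When the scaling used only miRNAs outside the Dlk1-Dio3 locus, a domain with 109 miRNAs in the table, the value turned to −0.09, while the median of all miRNAs moved from −0.16 to −0.63. Relative to that median, miR-148a-3p differed by 0.55 under the first scaling and 0.54 under the second. At E7.5 the Exe controls lay between 5451 and 5684 CPM and the Epi controls between 3948 and 4682 CPM, and this difference was not called (log2 fold change 0.26 ± 0.17, edgeR adjusted p = 0.276).

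miR-148a-3p and miR-148b-3p fell in the E7.5 epiblast of Dnmt-null embryos. Both passed after adjustment too, and these were the only calls among 17 tests of Dnmt-null against control over the tissues and stages, where 26.3% of all tests passed and 15.8% after adjustment. At E6.5 this background was 13.0% in Exe and 25.9% in Epi, and at E7.5 it was 19.4% in Exe. In E7.5 Epi alone, 2 of the 6 members passed, both lower, against 40.5% of 652 miRNAs called in either direction and 20.6% called lower. The count of members called is near this background and is not a result about the families.

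The level of miR-148a-3p was 3093, 3104 and 3366 CPM in the E7.5 Epi Dnmt-null libraries and 4682, 4462 and 3948 CPM in the controls. Every mutant library lay below every control. The fitted log2 fold change was −0.68 ± 0.13 (SE) with an adjusted p of 6.33e-04 by edgeR's quasi-likelihood test. The level of miR-148b-3p was 202, 147.5 and 132 CPM against 260, 213 and 251 CPM, again without overlap. Its fitted log2 fold change was −0.82 ± 0.30 (SE) with an adjusted p of 0.0455 by the same test.

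Both changes depended on the scaling. The log2 ratio of the mean CPM values was −0.45 for miR-148a-3p and −0.59 for miR-148b-3p, less than the fitted values. With scaling on miRNAs outside Dlk1-Dio3 the fitted values were −0.36 and −0.49 and neither was called, although both stayed below 0. The median of all miRNAs in this comparison moved from −0.19 to 0.13 between the scalings, and relative to it miR-148a-3p differed by −0.49 under both and miR-148b-3p by −0.63 and −0.62. The miR-148b-3p call was also lost without Dnmt-null replicate 2 (−0.72) or replicate 3 (−0.73), and without the filter on low counts (−0.68).

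Markers of cell types moved with this comparison. The sum of the 5 epiblast markers was 105333 to 164935 CPM in the E7.5 Epi Dnmt-null libraries and 202279 to 212606 CPM in controls, and all 5 were above the floor in every library. The 8 trophoblast markers summed to 3552 to 7128 CPM against 1657 to 2168. Of these, 6 to 7 were above the floor in both groups, and miR-466f-3p was at 0 in 2 libraries of each. miR-467a-5p and miR-467b-5p both had 153 to 649 counts in mutants and 595 to 765 in controls. The trophoblast sums throughout may therefore count the same reads for both. The 7 blood markers summed to 938 to 1160 CPM against 187 to 199, with 3 to 4 above the floor. miR-142a-5p accounted for 213 to 424 counts per mutant library, while miR-144-3p and miR-223-3p were at 0 in all mutant libraries. The 5 stromal markers summed to 132 to 164 CPM against 373 to 785, with 1 to 3 above the floor in mutants and 4 in controls, and miR-214-3p was at 0 throughout. The 4 endoderm markers summed to 2334 to 3042 CPM against 3459 to 4174. Of these, 3 to 4 were above the floor in mutants and 4 in controls. They did not move alike: miR-375-3p had 125 to 636 counts in mutants against 5806 to 6223 in controls. miR-192-5p had 182 to 1027 against 584 to 1620 counts. Library totals were 272867 to 488108 counts in mutants and 1623256 to 2325698 in controls. The part of these shifts in the fall of miR-148a-3p and miR-148b-3p was not tested.

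The other members gave no call in the E7.5 epiblast. miR-152-3p was counted 0, 9 and 0 times in the mutants against 58, 60 and 52 times in the controls, so the groups did not overlap. The fitted interval was wide and included 0 (log2 fold change −2.37, 95% interval −5.46 to 0.72, edgeR adjusted p = 0.281). miR-29a-3p was at 88.0, 75.8 and 71.4 CPM in the mutants and 60.2, 18.6 and 65.3 CPM in the controls, above every control but not called (0.46 ± 0.58 SE, edgeR adjusted p = 0.591). miR-29b-3p and miR-29c-3p were tested here on 0 to 14 counts per library and were not called.

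In the other tissues and stages the Dnmt-null state gave no call. In E6.5 Exe, miR-148a-3p was at 4724, 8490, 4578 and 6237 CPM in mutants against 5418 to 8064 CPM in controls (log2 fold change −0.33 ± 0.23, edgeR adjusted p = 0.613). In E6.5 Epi it was at 2564, 4964, 3601 and 4352 CPM, where 2564 CPM came from the shallowest library, with 116 reads of miR-148a-3p (−0.42 ± 0.26, edgeR adjusted p = 0.322). In E7.5 Exe the mutants spread from 2587 to 9092 CPM around tightly grouped controls, and the value was 0.11 ± 0.24 (edgeR adjusted p = 0.905). This sign rests on 1 library, since without Dnmt-null replicate 1 the value was −0.13. miR-148b-3p in these tissues gave −1.27 ± 0.96 (E6.5 Exe), −0.71 ± 0.73 (E6.5 Epi) and −0.18 ± 0.35 (E7.5 Exe), each with a 95% interval that includes 0.

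The Dnmt-null effect on miR-148a-3p differed between tissues at E7.5, by −0.83 ± 0.34 (SE) on the log2 scale for Epi minus Exe. This passed the threshold without adjustment and not with it (adjusted p = 0.236) in edgeR's test over all 62 libraries. It was 1 of 10 such tests of members, and 15.7% of all tests of this kind were called (18.1% at E6.5 and 13.4% at E7.5) and 0.760% after adjustment. The call was lost in 10 of 20 alternative settings, among them the removal of any 1 E7.5 Epi Dnmt-null library (values from −0.70 to −0.47) or of E7.5 Exe Dnmt-null replicate 1, 2 or 3 (−0.68, −0.50 and −0.67), and of E7.5 Epi control replicate 1 (−0.69).

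Loss of the enzymes one family at a time was then compared with controls. In Dnmt1-KO tissue, edited in the target of miR-148/miR-152, 0 of 17 member tests were called, 0 had an unadjusted p under 0.05 by edgeR, and DESeq2 called 0 as well. Of all tests 17.0% were called and 6.39% after adjustment. Without adjustment the share was 8.78% of Exe and 12% of Epi miRNAs at E6.5, and 16.8% of Exe and 25.0% of Epi miRNAs at E7.5. miR-148a-3p came closest, at −0.47 (95% interval −0.92 to −0.02, edgeR adjusted p = 0.498) in E6.5 Exe and −0.25 (−0.48 to −0.01, edgeR adjusted p = 0.183) in E7.5 Epi. These intervals are 1.96 SE to either side, without allowance for the few libraries, and both tests missed the threshold of 0.05 although their intervals leave out 0.

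In Dnmt3a/3b-DKO tissue, edited in the targets of miR-29, 0 of 17 member tests were called, 0 had an unadjusted p under 0.05 by edgeR, and DESeq2 called 0. Of all tests 12.8% were called and 3.93% after adjustment. Without adjustment the share was 9.04% of Exe and 14.9% of Epi miRNAs at E6.5, and 8.21% of Exe and 17.8% of Epi miRNAs at E7.5. miR-29a-3p was at 39.7, 48.3, 28.9 and 57.5 CPM in E7.5 Epi Dnmt3a/3b-DKO, inside the range of its controls (log2 fold change −0.24, 95% interval −1.27 to 0.80). In E7.5 Exe it was at 0, 14.1, 14.5 and 7.52 CPM, below the control range of 18.3 to 32.7 CPM, but was not called (−1.46 ± 1.45 SE, edgeR adjusted p = 0.938). In E6.5 Exe it had 12, 3, 7 and 5 counts in Dnmt3a/3b-DKO against 0 in every control. It failed the filter on low counts there, and without the filter it passed the unadjusted threshold with an edgeR adjusted p of 0.533.

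The partial mutants compared directly with each other also gave 0 of 17 calls by edgeR and by DESeq2, with 0 at an unadjusted p under 0.05. Of all tests 11.2% were called and 3.00% after adjustment. Without adjustment the share was 4.26% of Exe and 9.78% of Epi miRNAs at E6.5, and 10.6% of Exe and 16.6% of Epi miRNAs at E7.5. None of the members was therefore shown to differ between the loss of its own target and the loss of the other. These non-calls do not show equal levels. In simulated data built on the E7.5 Epi libraries (603 miRNAs), 44.0% of 2-fold changes were recovered and 5.73% of unchanged miRNAs were called. The simulated comparison was Dnmt-null against control, with 3 libraries each. These shares are averages over miRNAs and were not measured for the partial mutants, for other tissues and stages of these embryos or for single members.

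SC embryos gave a second set of comparisons with the Dnmt genes inactivated, from libraries used nowhere above. Of 11 member tests 4 were called, 1 higher and 3 lower, and 3 of them after adjustment, against 20.4% of all tests and 11.2% after adjustment. At E6.5, miR-148b-3p was at 182, 286 and 181 CPM in Dnmt-null SC embryos and 331, 310 and 329 CPM in WT SC embryos. The groups did not overlap, and the fitted log2 fold change was −0.92 ± 0.30 (SE), with an adjusted p of 0.196 by edgeR, and 18.9% of 461 miRNAs were called in this comparison. Without WT replicate 3, the library with few epiblast markers, it was −0.81 (adjusted p = 0.0667). The call was lost without Dnmt-null replicate 3 (−0.82) and without the low-count filter (−0.77). miR-148a-3p was not called in this comparison (log2 fold change −0.19 ± 0.30 SE). The epiblast markers, all 5 above the floor in every library, summed to 82565 to 122808 CPM in these Dnmt-null embryos and to 21252 to 214514 CPM in WT, which overlap. The 8 trophoblast markers summed to 14043 to 40489 against 3156 to 10607 CPM (7 to 8 and 6 to 7 above the floor, with miR-297a-5p at 0 in all WT libraries), and the 4 endoderm markers to 3551 to 4734 against 1828 to 2315 CPM (all above the floor), both without overlap. The 5 stromal markers, 3 of them above the floor, summed to 319 to 344 against 166 to 235 CPM, also without overlap, and miR-214-3p was at 0 throughout. The blood markers overlapped (444 to 977 against 298 to 597 CPM), and miR-223-3p was at 0 throughout. The part of these shifts in the result was not tested.

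DKO;Dnmt-null SC embryos were compared with DKO SC embryos. The DKO;Dnmt-null counts came from a separate table, so table and genotype cannot be told apart, and depth also differed (177142 to 1366522 counts against 2150520 to 2425038). miR-148b-3p was at 266, 294 and 258 CPM against 375, 405 and 420 CPM and fell by 0.68 on the log2 scale (SE 0.13, edgeR adjusted p = 3.53e-04). miR-152-3p was at 28.5, 67.7 and 33.3 CPM against 14.9, 8.55 and 7.01 CPM and rose by 1.81 (SE 0.50, edgeR adjusted p = 0.00912). Neither pair of groups overlapped. miR-29a-3p was at 26.3, 22.6 and 58.3 CPM against 51.2, 69.2 and 53.2 CPM, overlapping, and fell by 0.95 (SE 0.33, edgeR adjusted p = 0.0315). It lost its call without DKO replicate 2 (−0.80) or without DKO;Dnmt-null replicate 1 (−0.52), whereas the miR-148b-3p and miR-152-3p calls were made in all 12 alternative settings. In this comparison 31.0% of 603 miRNAs were called. The cell type markers moved with it. The epiblast markers (5 of 5 above the floor) summed to 130119 to 147052 CPM in DKO;Dnmt-null against 177971 to 196784 CPM in DKO. The trophoblast markers summed to 18079 to 22614 against 15066 to 16819 CPM (7 to 8 of 8 above the floor against 8), the blood markers to 775 to 960 against 227 to 290 CPM (5 to 6 above the floor in both) and the endoderm markers to 2540 to 3505 against 1592 to 1953 CPM (4 of 4). None of these overlapped, whereas the stromal sums did (233 to 362 against 284 to 288 CPM). The markers miR-223-3p and miR-214-3p were not analysed in DKO;Dnmt-null. Their part in the 3 calls was not tested.

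At E7.5, Mir-6KO;Dnmt-null SC embryos held miR-148a-3p at 5291, 4448 and 5163 CPM and control SC embryos at 5613, 6780 and 5403 CPM. The groups did not overlap, and the log2 fold change of −0.50 ± 0.15 (SE) fell just short of the threshold (edgeR adjusted p = 0.170, called in 3 of 12 alternative settings), where 10.8% of 585 miRNAs were called. miR-148b-3p, at 184, 265 and 228 CPM against 273, 292 and 173 CPM, overlapped and was not called. miR-152-3p had 1132, 881 and 0 counts in the controls and 0, 20 and 0 in the mutants, in libraries of 8570373 to 26970637 counts. It was therefore listed at 0 in 1 control as well, and it was not called (edgeR adjusted p = 0.529). The groups also differ by the miRNA deletions, which cannot be told apart from the Dnmt edit here.

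**Figure D2:**
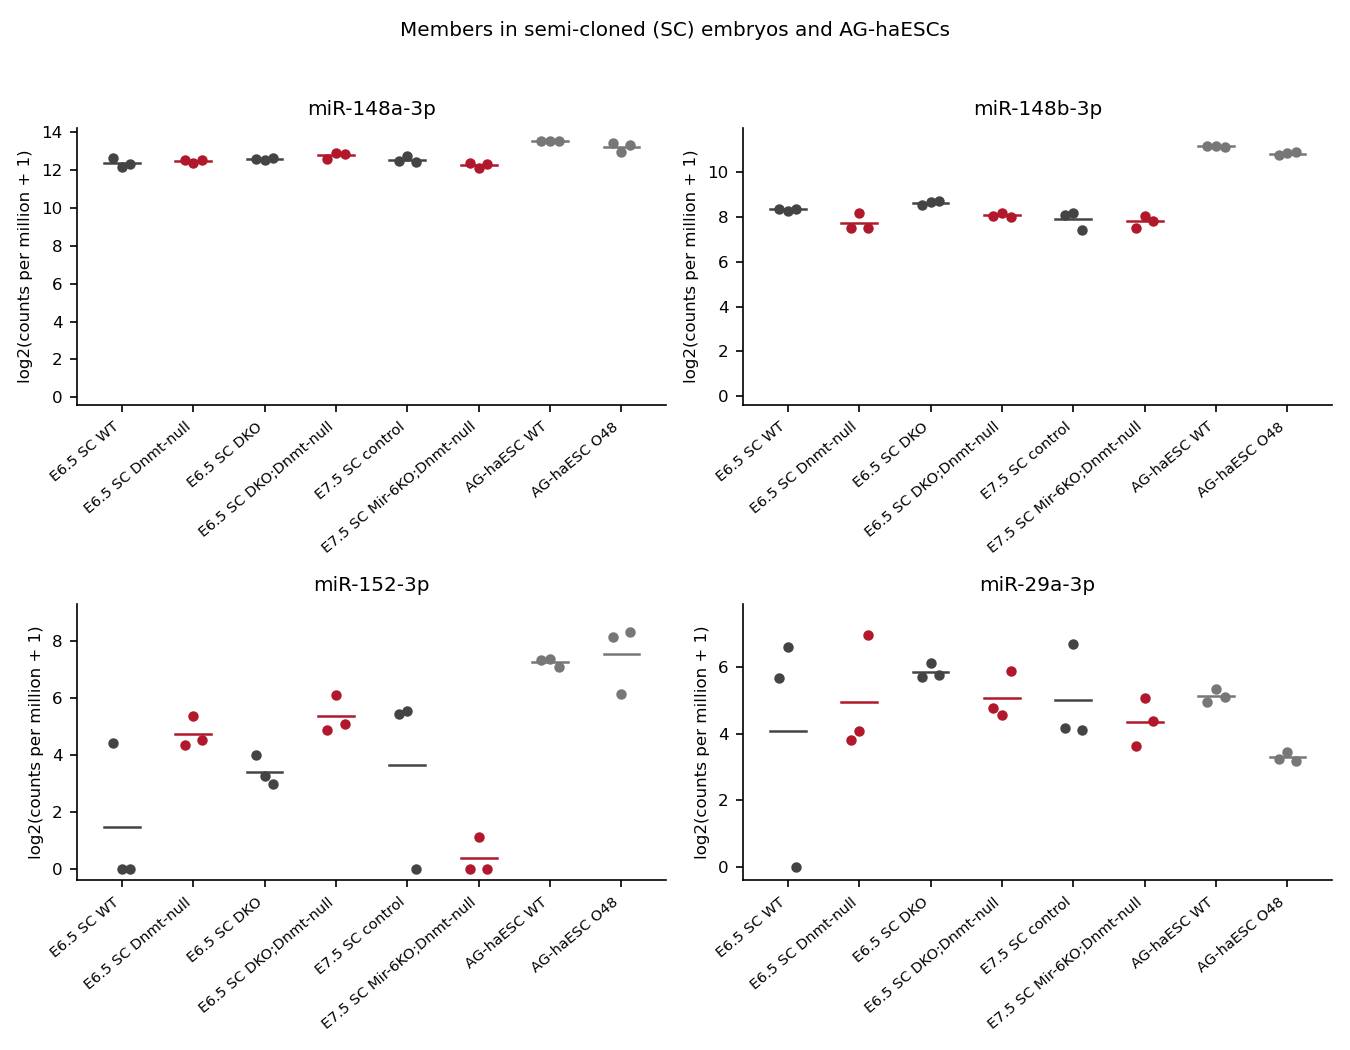
log2(CPM + 1) of 4 members (vertical axis) in SC embryos and AG-haESCs by group (horizontal axis), with 1 point per library and the group mean as a bar; Dnmt-inactivated groups are red. miR-148b-3p lies below its control group in both E6.5 comparisons, and miR-148b-3p is higher in the WT and O48 AG-haESCs than in the SC embryos.

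Seen across all comparisons of Dnmt-null with its control, miR-148b-3p had a log2 fold change below 0 in 7 of 7, from −1.27 to −0.18 with a median of −0.71. It was singled out after its values were seen. The 7 comparisons share no library. The Dnmt edit is not the only difference in all of them. Mir-6KO;Dnmt-null also carries the miRNA deletions, and the DKO;Dnmt-null counts came from a separate table. Of 328 miRNAs tested in all of them, 38 (11.6%) were below 0 in all and 36 (11.0%) above 0 in all, so this constancy of sign was no rarity. miR-148b-3p stayed below 0 under every alternative setting, the closest to 0 being −0.0059 in E7.5 Exe. miR-148a-3p was below 0 in 5 of 7.

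**Figure D3:**
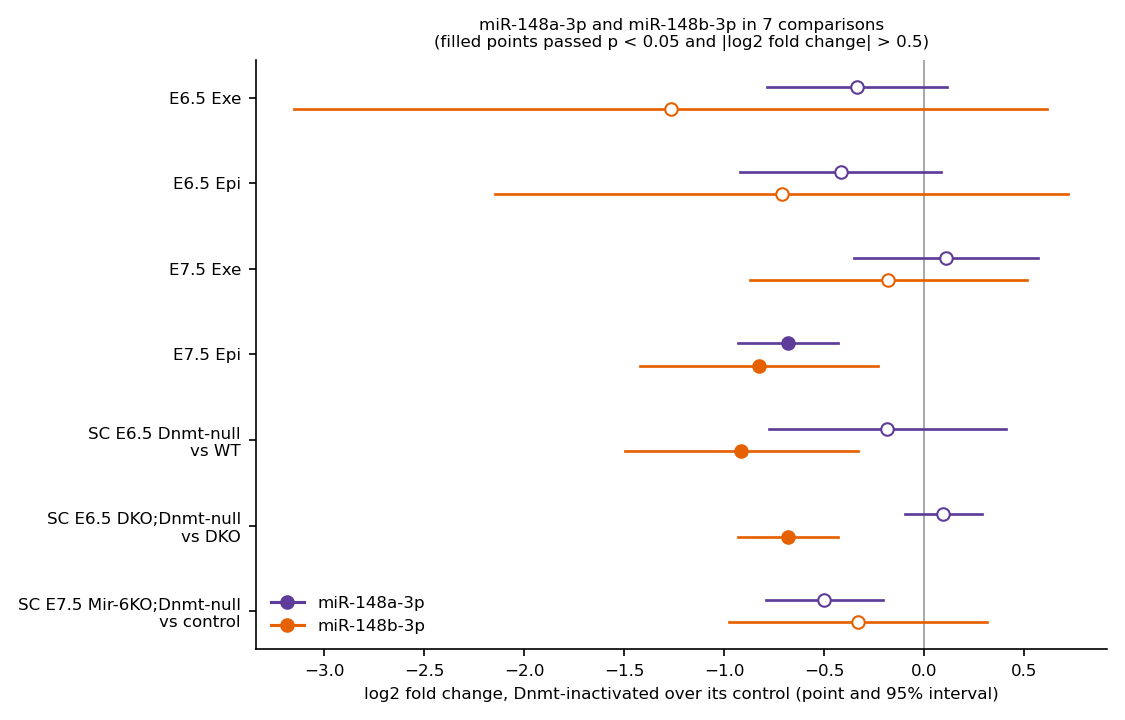
Fitted log2 fold change of miR-148a-3p and miR-148b-3p (horizontal axis, point and 95% interval) in the 7 comparisons of Dnmt-inactivated tissue with its control (vertical axis); filled points passed p below 0.05 and a log2 fold change beyond 0.5. All miR-148b-3p points lie below 0, from −1.27 to −0.18, and 4 of the 7 intervals cross 0.

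miR-29b-3p and miR-29c-3p could not be separated with confidence. They share their first 17 bases and all but 3 of the 22 compared. Over 91 libraries both were at 0 in 47 and both above 0 in 28, and in 12 of those 28 their counts were equal. miR-29b-3p alone was above 0 in 15 libraries and miR-29c-3p alone in 1. Per the methods, reads were assigned to miRBase sequences with a leeway of 2 bases at the 3′ end, so an assigned read reaches past base 18, where the pair first differ. How many mismatches were allowed and how a read that fits both was counted were not given in the sources used here, and values of each are reported as uncertain. Where counts were present they were often concentrated in 1 library of a group. In E7.5 Epi Dnmt1-KO, for example, miR-29b-3p had 0, 0, 59 and 9 counts and miR-29c-3p 0, 0, 59 and 1.

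**Figure D4:**
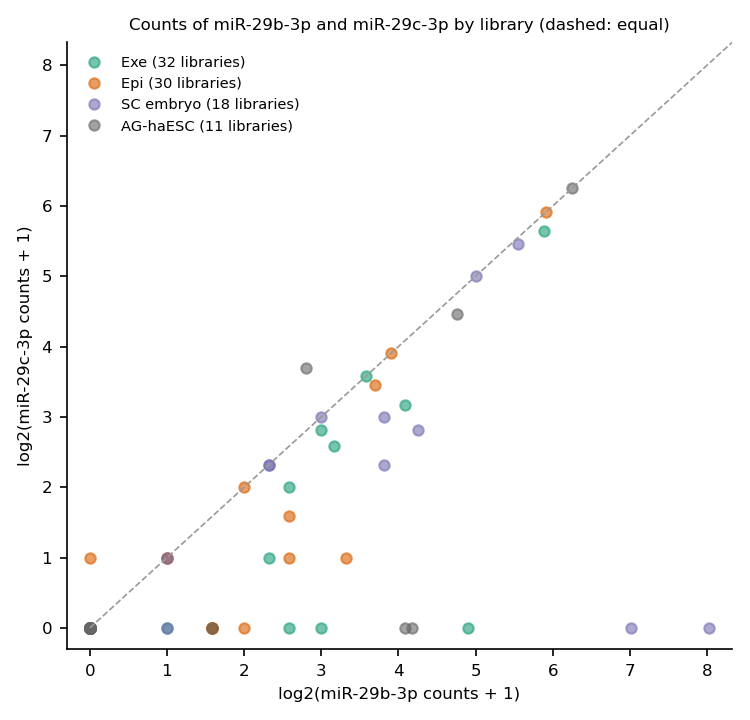
log2(count + 1) of miR-29b-3p (horizontal axis) against miR-29c-3p (vertical axis) in each of 91 libraries, coloured by tissue, with equal counts on the dashed line. Of 28 libraries with both above 0, 12 have equal counts, and 15 libraries hold only miR-29b-3p.

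WT and O48 AG-haESCs held more miR-148b-3p than any embryo tissue. WT cells were at 2341, 2329 and 2246 CPM and O48 cells at 1753, 1841 and 1902 CPM, against at most 420 CPM in embryos. miR-148a-3p was at 11897, 11900 and 11658 CPM in WT and 10901, 7935 and 10199 CPM in O48 cells. Cells in culture and embryo tissue were not tested against each other.

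Between the lines, without any Dnmt edit, 1 of 7 member tests was called over the O48 and SC DKO comparisons, against 22.9% of all tests and 13.5% after adjustment (29.9% for O48 and 13.0% for SC DKO without it). miR-29a-3p was at 8.39, 9.995 and 8.15 CPM in O48 and 30.1, 39.3 and 33.6 CPM in WT cells, with no overlap. It fell by 1.65 on the log2 scale (SE 0.32, edgeR adjusted p = 0.00696) and was called in all 12 alternative settings, with adjusted p from 1.96e-05 to 0.0449. Marker sums were also lower in O48 than WT cells, without overlap, at 924 to 1670 against 3659 to 3914 CPM for epiblast, 2668 to 3706 against 4808 to 4999 CPM for trophoblast, 532 to 1166 against 1390 to 1439 CPM for blood and 1047 to 1157 against 3054 to 3348 CPM for endoderm. In O48 cells 3 to 5 of 5, 7 to 8 of 8, 4 to 5 of 7 and 3 to 4 of 4 of these were above the floor, and miR-223-3p was at 0 in both lines. The stromal sums overlapped (1204 to 1672 against 1550 to 1629 CPM). All these sums are CPM without the scaling factors of the fit. A CPM difference can shrink under that scaling, as it did for miR-148a-3p and miR-148b-3p below. The part of these shifts in the result was not tested. miR-148a-3p and miR-148b-3p were lower in O48 by CPM, without overlap, but their fitted log2 fold changes were 0.02 ± 0.13 and −0.02 ± 0.09 after scaling. In E6.5 SC DKO against WT embryos no tested member was called by edgeR at an unadjusted p under 0.05.

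The opposite arms of the same hairpins gave a further readout of the loci. Of the 7 5p arms, those of Mir148a and Mir148b were regularly detected, while the 5p arms of the miR-29 hairpins and of Mir152 were scarce. Over Dnmt-null against control, 2 of 10 tests of 5p arms were called, both lower and 1 after adjustment, against 26.3% of all tests called and 12.6% called lower, and the count is not a result about the 5p arms. miR-148b-5p was at 29.3, 63.5 and 17.8 CPM in E7.5 Epi Dnmt-null and 115, 68.6 and 129 CPM in controls, without overlap (log2 fold change −1.73 ± 0.56 SE, edgeR adjusted p = 0.0249). Both arms of Mir148b were thus lower in that tissue. By contrast, miR-148a-5p was at 323, 63.5 and 161 CPM against 344, 200.1 and 179 CPM there and was not called, while in E6.5 Epi it was at 0, 17.7, 60.0 and 106 CPM against 178, 139, 179 and 224 CPM (−1.997 ± 0.76 SE, edgeR adjusted p = 0.0862).

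miR-148b-5p was also lower in E7.5 Epi Dnmt1-KO, at 47.5, 31.4, 56.6 and 72.3 CPM (log2 fold change −1.20 ± 0.49 SE, edgeR adjusted p = 0.119, passing without adjustment), where its 3p arm gave −0.05 ± 0.27. In DKO;Dnmt-null SC embryos the 5p arms of Mir148a and Mir148b were lower than in DKO embryos. The log2 fold change was −0.97 ± 0.18 for miR-148a-5p (edgeR adjusted p = 3.35e-04) and −0.58 ± 0.25 for miR-148b-5p (edgeR adjusted p = 0.0794). miR-152-5p, at 0.73, 11.3 and 4.17 CPM against 6.51, 0.43 and 0.41 CPM, was not tested there. In that comparison 31.0% of 603 miRNAs were called, and table and genotype cannot be told apart. miR-148a-5p was also called lower, without adjustment, in E6.5 SC Dnmt-null against WT embryos (−1.54 ± 0.64 SE). So were miR-148b-5p in E6.5 Exe against Epi controls (−2.01 ± 0.84 SE) and miR-148a-5p for the E6.5 Dnmt-null effect, Epi minus Exe (−1.89 ± 0.79 SE). In these comparisons, in order, 18.9%, 39.6% and 18.1% of all miRNAs were called in either direction. No 5p arm was called higher in any comparison, and this count is not a result about the 5p arms.

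Other miRNAs with a known Dnmt target were read beside the members: miR-143-3p, miR-101a-3p, miR-101b-3p, miR-185-5p, miR-342-3p, miR-126a-3p and miR-221-3p. Over Dnmt-null against control, 5 of their 25 tests were called, all lower and 4 after adjustment, against 12.6% of all tests called lower. All 5 were at E7.5. In E7.5 Epi, miR-342-3p, an intronic miRNA of Evl, was at 2624, 2063 and 2049 CPM against 3873, 3569 and 4059 CPM (log2 fold change −1.003 ± 0.14 SE, edgeR adjusted p = 4.05e-05). miR-143-3p, which is abundant in smooth muscle and stroma, was at 7.33, 45.1 and 17.8 CPM against 311, 284 and 170 CPM (−3.60 ± 0.58 SE, edgeR adjusted p = 1.39e-04). miR-126a-3p, from an intron of Egfl7 in endothelium, was at 125, 102 and 100.0 CPM against 411, 236 and 141 CPM (−1.50 ± 0.41 SE, edgeR adjusted p = 0.0100). The last 2 are also stromal markers above. In E7.5 Exe, miR-143-3p and miR-126a-3p were called lower as well. miR-342-3p also fell in E7.5 Epi Dnmt1-KO (−0.88 ± 0.13 SE, edgeR adjusted p = 1.04e-04) and in DKO;Dnmt-null SC embryos (−0.85 ± 0.10 SE, edgeR adjusted p = 1.66e-06). In that Dnmt1-KO tissue the epiblast markers summed to 135939 to 200375 CPM against 202279 to 212606 in controls. Trophoblast markers summed to 2575 to 3681 against 1657 to 2168 CPM, and blood markers to 428 to 616 against 187 to 199 CPM. The stromal and endoderm sums overlapped. The part of these shifts in the fall of miR-342-3p was not tested.

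As a description of pattern, the group mean log2 CPM of each member over the 16 Exe and Epi groups was set beside that of 658 miRNAs kept by the filter. miR-148a-3p was most like miR-501-5p (Pearson r = 0.91), miR-532-5p (0.87) and miR-669e-5p (0.87). miR-148b-3p was most like miR-26b-3p (0.80), miR-152-3p most like miR-26a-5p (0.75), and miR-29a-3p most like miR-146a-5p (0.88) and miR-31-5p (0.88). Within the families, r was 0.72 between miR-148a-3p and miR-152-3p, 0.23 between miR-148a-3p and miR-148b-3p, and −0.04 between miR-29a-3p and miR-29b-3p. The groups share tissue, stage and the depth of their libraries, and no p is given.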

How the data were processed

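CAS-seq small RNA libraries were analysed from tables of raw counts per mature miRNA, deposited by the authors. Per the labels, the authors used fastp 0.20.1, Bowtie 1.2.1.1 and DESeq2 1.30.1 with GRCm38; the treatment of reads that match several miRNAs and of molecular identifiers was not given in the sources used here. From these counts, counts scaled to one library total (CPM), percentages and log2 fold changes were computed. The main table held 88 libraries and 1504 miRNAs. A further table held 3 E6.5 SC DKO;Dnmt-null libraries and 895 miRNAs, all also in the main table, and those libraries were compared with DKO over the shared miRNAs. In an older copy of the main table, 2 columns of no sample were not used. The 3 libraries of the line 408, whose group the labels do not give, entered no comparison.

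Each comparison was fitted over all miRNAs with edgeR 4.0.16 in R 4.3.3 (quasi-likelihood F-test, TMM factors, filterByExpr with a minimum count of 10), by tissue and stage with all 4 genotypes in 1 model. A miRNA was called at p below 0.05 and a log2 fold change beyond 0.5, after the thresholds of the study, with Benjamini-Hochberg adjustment over all miRNAs tested given beside it. SE was the log2 fold change over the square root of F, and intervals (95%) were 1.96 SE. Of 10 models, miR-148a-3p and miR-148b-3p passed the filter in 10, miR-29a-3p in 9, miR-152-3p in 8, miR-29b-3p in 3 and miR-29c-3p in 1. Scripts were tested on simulated data. Replicates differed beyond sampling noise (lowest chi-squared per degree of freedom 4.20 over 118 pairs). 145 miRNAs had counts identical to another in every library, none of them members.

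Named miRNAs were the members, their opposite arms, 7 further miRNAs with a known Dnmt target, and the 3 most alike by group mean. The members and lists were chosen with earlier results of these data known. Sequences and loci of the 6 members were taken from RefSeq (GRCm38.p6), and 3′ UTRs of 20846 genes from the GENCODE annotation, with lengths from 0.8 to 1.25 times the target's taken as alike. Alternatives were DESeq2 1.42.0, RLE size factors, TMM on miRNAs outside Dlk1-Dio3, no filter, a filter at a mean of 10 counts, a replicate block, only the 2 groups compared, and leaving out each library.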

Additional observations from a re-analysis of the deposited data

Results flagged for a closer look

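A library was marked where its gap to the nearest of its group, over the group's range, passed Dixon's 95% value. A set of values (a member in a group of 4 libraries) was taken only where at least 1 library lay above the floor. Sets with every library at or below the floor were left out, also where a single library held all the counts. Of the 70 sets taken, 18 had a marked library. Chance marks about 1 in 20 sets of continuous values, which is not the rate for sparse counts: in 9 of the 18 every other library was at 0, so that any count gives a ratio of 1.0. Their values are given without explanation, as the gap over the range and the level of that library against the median of the others.

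Most were in the miR-29 family. For miR-29a-3p they were E6.5 Epi Dnmt-null replicate 3 (0.886, 285 CPM against 8.86), E7.5 Exe Dnmt-null replicate 4 (0.915, 40.4 CPM against 6.75) and E7.5 Exe Dnmt1-KO replicate 2 (0.920, 124 CPM against 6.65). For miR-29b-3p, with the others at 0, the ratio was 1.0 in E6.5 Exe Dnmt1-KO replicate 4 (59.3 CPM), E6.5 Exe control replicate 3 (39.6 CPM), E7.5 Exe Dnmt3a/3b-DKO replicate 4 (24.2 CPM) and E7.5 Exe Dnmt1-KO replicate 2 (16.3 CPM), and it was 0.853 in E7.5 Epi Dnmt1-KO replicate 3 (49.1 CPM). The same 5 libraries were marked for miR-29c-3p, with 1.0 in those of Exe (50.8, 24.7, 20.5 and 16.3 CPM) and 0.984 in that of Epi (49.1 CPM), together with E7.5 Exe control replicate 2 (1.0, 9.34 CPM against 0). E6.5 Exe Dnmt1-KO replicate 4 was also the library with high blood markers.

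For miR-148b-3p, E7.5 Exe Dnmt3a/3b-DKO replicate 1 was high (0.956, 228 CPM against 160.2) and E7.5 Exe Dnmt1-KO replicate 2 low (0.972, 157 CPM against 235). For miR-152-3p, E6.5 Epi Dnmt1-KO replicate 3 (0.865, 45.8 CPM against 10.4) and E7.5 Epi Dnmt3a/3b-DKO replicate 3 (0.937, 71.3 CPM against 22.7) were high.

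The Dnmt-null effect on miR-148a-3p at E7.5 was marked as a difference between tissues, at −0.83 on the log2 scale for Epi minus Exe (edgeR adjusted p = 0.236).

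In libraries outside the comparisons, the members named here were above the floor in every library. The line 408 AG-haESCs had medians of 11042 CPM for miR-148a-3p, 2230 CPM for miR-148b-3p, 127 CPM for miR-152-3p and 26.7 CPM for miR-29a-3p. The AG-haESC Mir-6KO libraries had medians of 5965 CPM for miR-148a-3p, 298 CPM for miR-148b-3p and 55.8 CPM for miR-29a-3p.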

How the results depend on the processing

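Counts of members called moved beyond 1.5 times under these alternatives. With TMM on miRNAs outside Dlk1-Dio3, 0 were called for Dnmt-null against control, 2 for Exe against Epi, 3 for E7.5 against E6.5 (miR-148a-3p and miR-148b-3p lower in Epi besides miR-29a-3p) and 0 for the difference between tissues. Without the low-count filter there was 1 each for Dnmt-null, Dnmt1-KO, Dnmt3a/3b-DKO and Dnmt1-KO against Dnmt3a/3b-DKO, 2 for Exe against Epi, 0 for the difference between tissues and 4 for O48 and SC DKO against WT. A filter at a mean of 10 counts gave 0 for the difference between tissues and 2 for O48 and SC DKO, DESeq2 gave 2 for Exe against Epi, and adjusted p gave 0 for the difference between tissues. The reversed values were −0.0887 for miR-148a-3p in E6.5 Exe against Epi under TMM on miRNAs outside Dlk1-Dio3 and −0.13 in E7.5 Exe Dnmt-null without replicate 1, in a range up to 0.30 without replicate 4. The cause was not tested.

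Leaving out each library gave 1 to 3 calls for Dnmt-null (1 without E7.5 Epi Dnmt-null replicate 3), 0 to 1 for Dnmt1-KO (1 without E6.5 Exe Dnmt1-KO replicate 1, E6.5 Exe control replicate 3, E7.5 Exe Dnmt1-KO replicate 2 or E7.5 Epi control replicate 3), 0 to 1 for Dnmt3a/3b-DKO (E7.5 Exe Dnmt3a/3b-DKO replicate 4), 0 to 1 for Dnmt1-KO against Dnmt3a/3b-DKO (E6.5 Exe Dnmt1-KO replicate 1 or E7.5 Epi Dnmt1-KO replicate 1, 2 or 3), 1 to 2 for Exe against Epi (E6.5 Exe control replicate 1 or E7.5 Epi control replicate 2), 1 for stage, 0 to 2 for the difference between tissues, 3 to 6 for SC embryos and 1 to 3 for O48 and SC DKO against WT (3 without E6.5 SC WT replicate 1 or 3 or AG-haESC O48 replicate 2). The groups share only replicate numbers: same-numbered libraries correlated at r from −0.16 to 0.24 over 91 pairs, and 16 of 62 libraries were closest to their own number. With the replicate block, Dnmt-null against control still gave 2 calls, and no call or count of members changed. Values of miR-29b-3p, miR-29c-3p and miR-152-3p often lay below the floor, which reached 66.3 CPM in the shallowest library. However, miR-29c-3p was also at 0 in all 6 E7.5 SC libraries, which had at least 8570373 counts.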
